A study of Mus musculus with 4 samples.

Results

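Wnt signalling genes were followed in single cells of the mouse cortex at embryonic day E15.5. The 10 genes were the ligands Wnt5a, Wnt7a and Wnt7b, the Frizzled receptors Fzd5 and Fzd8, the secreted proteins Sfrp1, Sfrp2 and Dkk3, and the pathway targets Axin2 and Lef1. They were taken by symbol, each matching 1 of the 32285 genes listed in the count matrices, so no measured value entered the choice of rows. The study carried out single-cell RNA-seq on 4 libraries of rostral neocortex, 2 from i4F-Nes embryos and 2 from littermate controls (CTR). i4F-Nes embryos carried Nestin-Cre, the i4F transgene (a doxycycline-inducible cassette of the 4 Yamanaka reprogramming factors) and ROSA-STOP-rtTA, so that the inducer rtTA is made only after Cre has acted in the Nestin lineage. CTR embryos carried i4F and ROSA-STOP-rtTA without Cre. All pregnant females, those with CTR embryos included, drank doxycycline at 0.2 mg/ml for 4 days, E10.5 to E14.5. The labels give no number of embryos per library, so p-values measure only the spread between these 4 libraries.

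Wnt proteins are secreted lipid-modified ligands that bind Frizzled receptors. In the β-catenin branch, binding stabilises β-catenin, which joins TCF and LEF proteins on DNA, and Axin2, itself an inhibitor of the pathway, is the best known gene switched on in return. Other ligands, Wnt5a among them, mostly act through Ror receptors and planar polarity proteins. Sfrp proteins bind Wnts outside the cell and can block them, whereas Dkk3 is a divergent member of the Dickkopf family whose effect on the pathway is less settled. In the developing cortex Wnt7a and Wnt7b act on progenitors and on brain blood vessels.

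Levels below are counts per 1e6 UMIs (CPM), a gene's UMIs over all UMIs of the cells summed. A UMI is a molecular barcode that counts an RNA molecule once. The 26641 kept cells carried 385263330 UMIs, 78494130 to 128353888 per library, and median UMIs per cell were 15140 (i4F-Nes replicate 1), 11342 (i4F-Nes replicate 2), 15134 (CTR replicate 1) and 11617 (CTR replicate 2), so replicate 2 was the shallower in both groups. Any 2 libraries shared few barcodes, 153 in all over the 6 pairs. Of the induced factors, Pou5f1 (Oct4) was read at 30.4 and 10.8 CPM in the i4F-Nes libraries and at 1.87 and 1.30 CPM in those of CTR, whereas the ranges of Sox2, Klf4 and Myc, which the cortex also makes from its own genes, overlapped between the groups. Cells were assigned to classes by minimum UMIs of marker genes, none of them among the 10, here called gates. The gates held 2326 radial glia, 1898 intermediate progenitors, 3466 newborn neurons, 5266 upper-layer and 4717 deep-layer neurons, 752 interneurons, 67 Cajal-Retzius cells, 50 endothelial cells, 45 mural cells and 132 microglia or macrophages. The labelled cell type, cortical neurons, therefore names only a share of what was captured. A further 784 cells with a Cytl1 S100a11 profile and 587 with a Krt8 Crabp2 Ebf profile were found in i4F-Nes libraries only. There were 419 and 365 cells of the first kind and 272 and 315 of the second. The CTR libraries had 0 of 6046 and 0 of 6690 cells. By counting error alone this allows shares of up to 0.0496% and 0.0448% in those 2 libraries, and it sets no limit for CTR embryos at large. Both lists were chosen on earlier results of these libraries, so the absence from CTR is no independent evidence. The first list includes Pou5f1. Another 3592 neurons lay between the layer gates and 2868 cells passed no gate, the latter 3.57% to 22.5% of a library and most in i4F-Nes replicate 2.

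The ligands Wnt7a and Wnt7b ran in opposite directions along the excitatory lineage. Wnt7a (chromosome 6, 91363981 to 91411363, GRCm38) was read in radial glia, the dividing stem cells that line the ventricle, at 36.1 and 27.8 CPM in CTR replicates 1 and 2 and at 42.0 and 23.6 CPM in i4F-Nes replicates 1 and 2. In intermediate progenitors, the Eomes-positive daughters of radial glia, it stood at 11.5 and 7.06 CPM in CTR and 14.1 and 7.73 CPM in i4F-Nes. Newborn neurons held 0.446 to 0.808 CPM in the 4 libraries, so the level dropped at each step and no library of a later gate reached any library of the gate before it. Wnt7b (chromosome 15, 85535437 to 85582473) ran the other way. Its level in radial glia was 2.81 and 1.80 CPM in CTR and 1.63 and 2.80 CPM in i4F-Nes, in intermediate progenitors 36.3 and 31.7 CPM against 37.6 and 27.7 CPM, and in newborn neurons 102 and 74.1 CPM against 105 and 83.2 CPM. Deep-layer neurons stood at 142 and 119 CPM in CTR and 142 and 127 CPM in i4F-Nes. Upper-layer neurons split by replicate number, with 138 and 108 CPM in replicate 1 of CTR and i4F-Nes and 59.6 and 54.3 CPM in replicate 2. At each replicate number CTR was the higher. Cajal-Retzius cells, the reelin-secreting neurons of the outermost layer, had the highest Wnt7b level of any gate in every library, from 330 CPM in CTR replicate 1 to 427 CPM in i4F-Nes replicate 1.

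These steps were tested within libraries on the summed counts, with the library as a block. From radial glia to intermediate progenitors Wnt7b rose by 3.97 ± 0.267 on the log2 scale (SE; edgeR adjusted p = 9.87e-12) and Wnt7a changed by -1.64 ± 0.160 (adjusted p = 3.47e-10), each in the same direction in 4 of 4 libraries. From intermediate progenitors to newborn neurons Wnt7b rose again, by 1.60 ± 0.175 (adjusted p = 4.28e-08), and Wnt7a changed by -3.94 ± 0.252 (adjusted p = 2.86e-14). Wnt7a was read again in deep-layer neurons at 3.65, 3.60, 5.31 and 4.48 CPM in CTR 1, CTR 2, i4F-Nes 1 and i4F-Nes 2, against 0.627, 0.793, 1.16 and 1.12 CPM in upper-layer neurons, a difference of 2.17 ± 0.217 (adjusted p = 1.14e-09). Deep-layer neurons also had more Wnt7b than upper-layer neurons, by 0.66 ± 0.154 (adjusted p = 0.00159), which was 0.50 with an adjusted p of 0.192 in the CTR libraries alone.

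**Figure D1:**
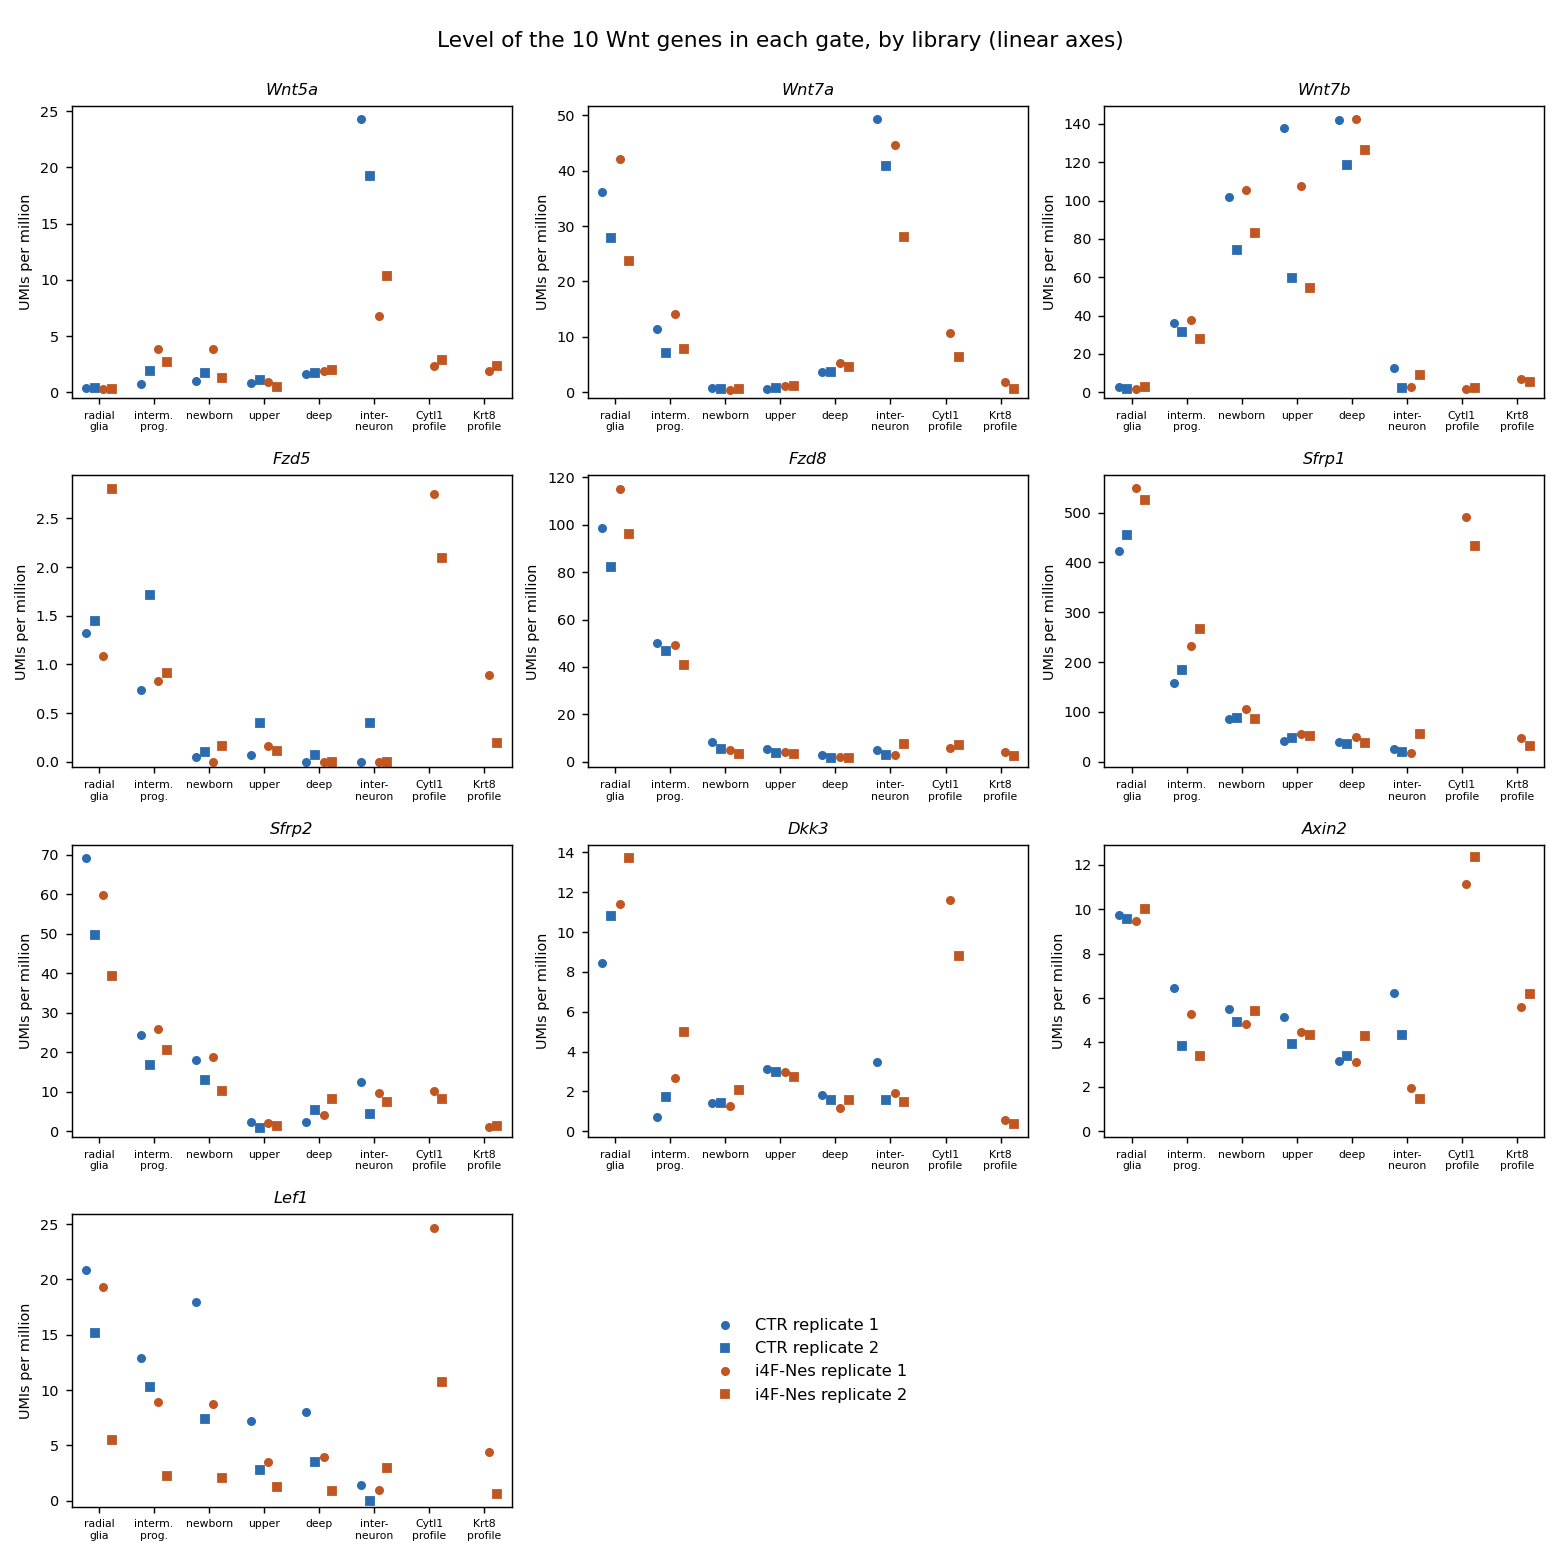
Level of each of the 10 genes in CPM (vertical axes, linear, each with its own range) in 8 gates (horizontal axes). Points are single libraries, blue for CTR and orange for i4F-Nes, circles for replicate 1 and squares for replicate 2. Wnt7a, Fzd8, Sfrp1 and Sfrp2 stand high in radial glia, and Wnt7b in neurons. Wnt5a stands highest in CTR interneurons at 24.3 and 19.3 CPM, and the 2 rightmost gates hold i4F-Nes cells only.

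Interneurons, which migrate into the cortex from outside it, held both Wnt7a and Wnt5a. Wnt7a stood there at 49.3 and 40.9 CPM in CTR and 44.7 and 28.0 CPM in i4F-Nes, which overlaps the range of radial glia. Wnt5a (chromosome 14, 28504750 to 28527448), the ligand of Ror signalling, was at 24.3 and 19.3 CPM in CTR interneurons and at 6.80 and 10.3 CPM in i4F-Nes interneurons, from 35, 49, 7 and 7 UMIs. Both i4F-Nes values lay below both CTR values, as was the case for 16.3% of all genes tested in that gate. The log2 difference of -1.38 ± 0.435 had an unadjusted p of 0.00785 and an adjusted p of 0.998, so the difference did not pass the test, and the i4F-Nes gates held only 124 and 88 cells. In the 5 gates of the excitatory lineage, radial glia to deep-layer neurons, the highest Wnt5a value in any library was 3.83 CPM. In radial glia it was at the edge of detection, 0.295 to 0.361 CPM from 12 UMIs in all. Intermediate progenitors had 0.739 and 1.93 CPM in CTR and 3.83 and 2.73 CPM in i4F-Nes, which was 2.75 ± 0.659 log2 units above radial glia over the 4 libraries (adjusted p = 0.00103) but 1.65 with an adjusted p of 0.137 in the CTR libraries alone. From newborn to upper-layer neurons Wnt5a changed by -1.19 ± 0.464 with an adjusted p of 0.0484, a call lost in 7 of the alternative fits.

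Of the receptors, Fzd8 marked the progenitors. Its level in radial glia was 98.5 and 82.1 CPM in CTR and 115 and 96.0 CPM in i4F-Nes. Intermediate progenitors held 50.1, 46.9, 49.2 and 40.9 CPM in CTR 1, CTR 2, i4F-Nes 1 and i4F-Nes 2, and newborn neurons 8.30, 5.33, 5.09 and 3.18 CPM. The 3 gates did not overlap in any library. The log2 difference was -1.05 ± 0.126 at the first of these steps (adjusted p = 2.43e-08) and -2.91 ± 0.151 at the second (adjusted p = 2.14e-16), and deep-layer neurons were lower still than upper-layer neurons (-0.98 ± 0.187, adjusted p = 0.000101). Fzd5 (chromosome 1, 64730558 to 64737751) was read 193 times in the whole data set. Radial glia held 1.32 and 1.44 CPM in CTR and 1.09 and 2.80 CPM in i4F-Nes, from 8 to 19 UMIs a library. It was nearly unread in newborn neurons, with 0 or 1 UMI a library, a log2 difference of -3.60 ± 0.675 from intermediate progenitors (adjusted p = 5.73e-05).

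The secreted inhibitor Sfrp1 (chromosome 8, 23411502 to 23449632) fell from radial glia to intermediate progenitors, to newborn neurons and to upper-layer neurons. In radial glia it stood at 423 and 456 CPM in CTR and 548 and 525 CPM in i4F-Nes, in intermediate progenitors at 158 and 183 against 232 and 266 CPM, and in newborn neurons at 86.3 and 88.5 against 107 and 85.9 CPM. Upper-layer neurons held 42.3 to 55.3 CPM and deep-layer neurons 34.7 to 48.7 CPM, which overlapped. The steps measured -1.21 ± 0.153, -1.02 ± 0.155 and -0.84 ± 0.155 on the log2 scale (adjusted p = 2.97e-07, 4.41e-06 and 0.000109). After thinning every cell to 3800 UMIs, 73.9% and 74.2% of CTR radial glia and 83.5% and 84.0% of i4F-Nes radial glia carried an Sfrp1 UMI. The microglia gate, whose cells should lack it, gave 7.14% and 4.55% in CTR and 21.4% and 22.2% in i4F-Nes, from 9 to 22 cells a library deep enough to thin, with exact binomial 95% intervals that span 0.115% to 60.0%. Median depths before thinning were 2214 to 6996 UMIs in that gate and 13999 to 17494 UMIs in radial glia. Free RNA can give such UMIs. The microglia shares were below those of radial glia in every library and, in i4F-Nes, no lower than the 11.04% to 20.7% of upper-layer and deep-layer neurons. Interneurons, thinned alike, gave 4.46% to 11.6%. How much of the neuronal Sfrp1 was free RNA was not tested.

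Sfrp2 and Dkk3 followed other courses. Sfrp2 (chromosome 3, 83766321 to 83774316) was at 69.1 and 49.6 CPM in CTR radial glia and 59.9 and 39.4 CPM in i4F-Nes radial glia. It fell by 1.28 to intermediate progenitors (SE 0.226, adjusted p = 4.44e-05), where it held 16.9 to 26.0 CPM. Newborn neurons still had 10.2 to 18.9 CPM, a step that did not pass the test (adjusted p = 0.190), and upper-layer neurons only 0.833 to 2.44 CPM, a difference of -3.14 ± 0.287 (adjusted p = 3.90e-09). Dkk3 (chromosome 7, 112116017 to 112159057) stood at 8.43 and 10.8 CPM in CTR radial glia and 11.4 and 13.7 CPM in i4F-Nes radial glia. It was lower in intermediate progenitors by -2.23 ± 0.266 (adjusted p = 2.22e-08) and higher in upper-layer than in newborn neurons by 1.05 ± 0.274 (adjusted p = 0.00282). Its highest levels lay outside the gates from radial glia to deep-layer neurons. Cajal-Retzius cells held 26.6 to 58.2 CPM in the 4 libraries, 47.3 CPM over all (95% Poisson interval 38.0 to 58.2), and mural cells, the pericytes and smooth muscle of vessels, 38.9 CPM (23.0 to 61.5) from 18 UMIs. Intervals of this kind cover counting error only, and the mural gate held 4 to 18 cells a library.

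The targets Axin2 and Lef1 were both higher in radial glia than in intermediate progenitors. Axin2 (chromosome 11, 108920349 to 108950783) held 9.75, 9.56, 9.46 and 10.0 CPM in radial glia of CTR 1, CTR 2, i4F-Nes 1 and i4F-Nes 2, a mean of 9.70 ± 0.249 (SD, n = 4). Intermediate progenitors stood at 6.44, 3.85, 5.27 and 3.41 CPM, lower by -0.94 ± 0.173 on the log2 scale in 4 of 4 libraries (adjusted p = 4.31e-05). Newborn, upper-layer and deep-layer neurons lay between 3.14 and 5.50 CPM. The steps to newborn and to upper-layer neurons did not pass the test, nor did the difference between deep-layer and upper-layer neurons. Lef1 (chromosome 3, 131110471 to 131224356), a DNA-binding partner of β-catenin as well as a target, held 20.8 and 15.2 CPM in CTR radial glia and 19.3 and 5.46 CPM in i4F-Nes radial glia. It was lower in intermediate progenitors by -0.86 ± 0.213 (adjusted p = 0.00115) and lower in upper-layer than in newborn neurons by -1.23 ± 0.210 (adjusted p = 2.05e-05). Within each of the 5 excitatory gates i4F-Nes replicate 2 gave the lowest Lef1 value, down to 0.876 CPM in deep-layer neurons, while CTR replicate 1 gave the highest, 17.9 CPM in newborn neurons against 2.06 CPM in i4F-Nes replicate 2.

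Both targets peaked in cells of the blood vessels. Endothelial cells had 284 Lef1 UMIs, 336 CPM (95% Poisson interval 298 to 377), all from CTR replicate 1 (62 UMIs in 13 cells, 267 CPM) and i4F-Nes replicate 2 (222 UMIs in 32 cells, 373 CPM). The other 2 libraries had 0 UMIs in only 3 and 2 cells (CTR replicate 2 and i4F-Nes replicate 1), where 3 counts would already be 241 and 538 CPM. Doublet removal had taken most endothelial cells of those 2 libraries. Without it CTR replicate 2 had 96 Lef1 UMIs in 20 cells (292 CPM) and i4F-Nes replicate 1 had 167 in 23 cells (427 CPM), so all 4 libraries then held Lef1 in this gate at 267 to 427 CPM. Axin2 was read at 102 CPM (74.6 to 135) in mural cells, from 47 UMIs in 45 cells, and at 22.5 CPM (13.5 to 35.1) in endothelial cells. The mural gate held only 9 and 18 cells in CTR replicates 1 and 2 and 4 and 14 in those of i4F-Nes, so its level is a sum over libraries. Lef1 in mural cells was 4.32 CPM (0.523 to 15.6), so the 2 targets did not share a vascular peak. Among the other pathway genes, endothelial cells had Apcdd1, a membrane-bound Wnt inhibitor that marks the blood-brain barrier endothelium, at 590 CPM and Fzd6 at 147 CPM, against 4.32 and 2.87 CPM in radial glia. Fzd4, the receptor that brain endothelium uses for the ligand Norrin, stood at 52.0 against 2.08 CPM, and Adgra2 (Gpr124), which endothelium needs to sense Wnt7a and Wnt7b, at 35.5 against 0.382 CPM. Those 4 were chosen after their values were seen.

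**Figure D2:**
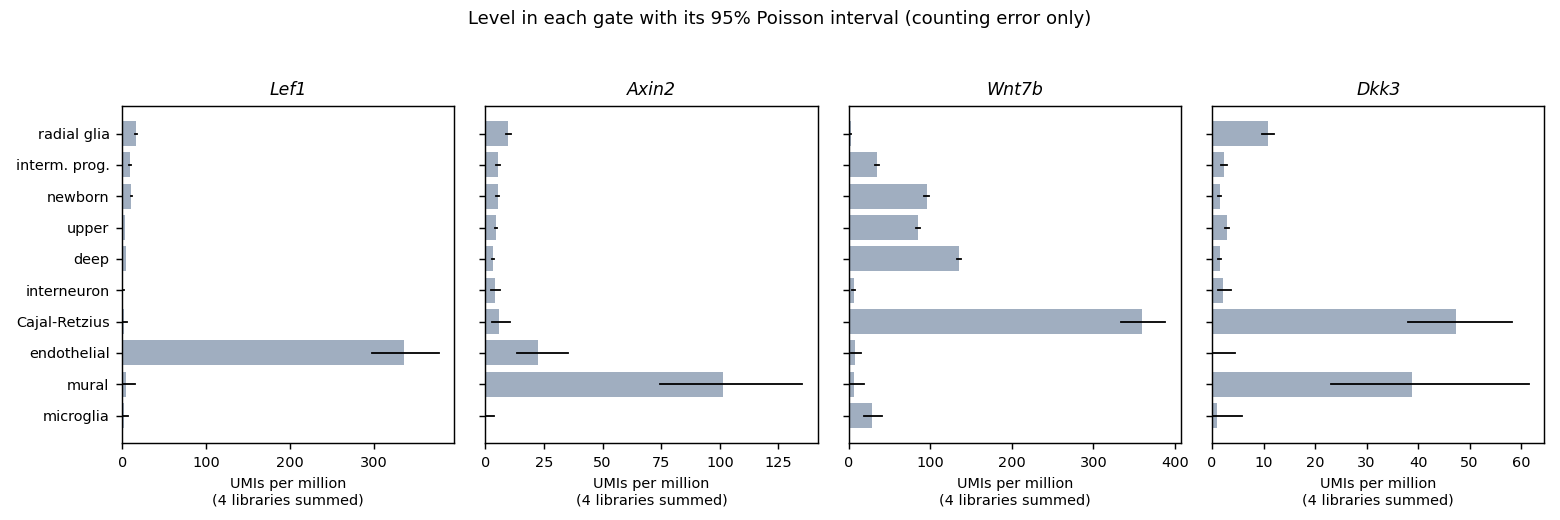
Level of Lef1, Axin2, Wnt7b and Dkk3 in CPM (horizontal axes, from 0) in 10 gates (vertical axis), over the 4 libraries summed. Bars are the level and black lines the 95% Poisson interval, which covers counting error only. Lef1 stands apart in endothelial cells at 336, Axin2 in mural cells at 102, Wnt7b in Cajal-Retzius cells at 360, and Dkk3 in Cajal-Retzius and mural cells at 47.3 and 38.9.

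Promoter sequences matched 5 of the 10 genes (RefSeq, GRCm38.p6, the 250 bases before each annotated start). The windows of the targets Axin2 and Lef1 are shown, with that of Wnt7a, which fell with them from radial glia to intermediate progenitors. Sfrp2 fell at that step too, and its window is not shown. The letters searched on both strands were the spellings bound by TCF and LEF proteins, which are CTTTGAA as well as CTTTGAT, together with CTTTGTA as well as CTTTGTT, and the core CTTTG that each of them contains. Capitals mark these letters or their reverse complement.
Axin2, chr11:108920099-108920348, plus strand: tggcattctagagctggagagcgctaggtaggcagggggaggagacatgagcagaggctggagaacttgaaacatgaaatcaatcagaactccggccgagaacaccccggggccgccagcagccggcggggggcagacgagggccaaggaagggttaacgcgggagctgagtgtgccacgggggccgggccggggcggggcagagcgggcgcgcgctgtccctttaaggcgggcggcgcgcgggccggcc
Lef1, chr3:131110073-131110322, plus strand: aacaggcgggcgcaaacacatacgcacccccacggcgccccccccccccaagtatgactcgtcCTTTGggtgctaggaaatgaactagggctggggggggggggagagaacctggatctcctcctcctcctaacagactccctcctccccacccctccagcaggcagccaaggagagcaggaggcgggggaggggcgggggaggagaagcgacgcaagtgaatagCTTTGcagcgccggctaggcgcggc
Lef1, internal start, chr3:131156044-131156293, plus strand: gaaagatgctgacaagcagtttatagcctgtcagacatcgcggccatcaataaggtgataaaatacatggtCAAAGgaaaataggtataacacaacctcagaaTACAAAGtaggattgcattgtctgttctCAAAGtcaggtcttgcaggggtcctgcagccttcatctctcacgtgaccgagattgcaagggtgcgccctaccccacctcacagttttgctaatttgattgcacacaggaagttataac
Wnt7a, chr6:91411354-91411603, minus strand: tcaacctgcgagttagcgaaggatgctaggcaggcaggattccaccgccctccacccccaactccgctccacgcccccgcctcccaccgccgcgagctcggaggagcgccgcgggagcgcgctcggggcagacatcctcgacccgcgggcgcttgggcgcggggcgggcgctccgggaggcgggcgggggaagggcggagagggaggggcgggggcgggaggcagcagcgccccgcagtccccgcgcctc
The windows of Axin2, Wnt7a, Fzd5 and Sfrp2 held none of these letters, not even the core. Lef1 has 4 annotated starts. Its windows beginning at 131110047 and 131112541, not shown, held the core 1 time each and no full spelling. The first Lef1 window shown held the core at 187 and 25 bases before the start, and that of the internal start held a full spelling, TACAAAG on the plus strand, beginning 147 bases before the start. A full spelling was found in 14.8% of all 32851 RefSeq promoter windows of this length and the core in 48.6%. A window without a match says only that these letters are not in it. Of CpG pairs, the Wnt7a window had 34, Fzd5 32, Axin2 24 and Sfrp2 16, against a median of 6 over all windows.

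Counted together, 9 of the 10 genes differed between intermediate progenitors and radial glia (2 higher, 7 lower), where 45.5% of the 18242 genes tested did (22.2% higher, 23.3% lower), and the exception was Fzd5 (adjusted p = 0.189). The median log2 difference over the 10 was -0.997, against -0.017 over all genes. From intermediate progenitors to newborn neurons 5 changed (1 higher, 4 lower; 45.3% of all genes, 23.3% higher and 22.0% lower), with a median of -0.43 against 0.017, and from newborn to upper-layer neurons 5 changed (1 higher, 4 lower; 33.6%, 17.7% higher and 15.9% lower), with a median of -0.27 against 0.029. Between deep-layer and upper-layer neurons 6 differed, 3 in each direction (32.2%, 17.9% higher and 14.3% lower), and 2 did in the CTR libraries alone, where 27.2% of all genes did.

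**Figure D3:**
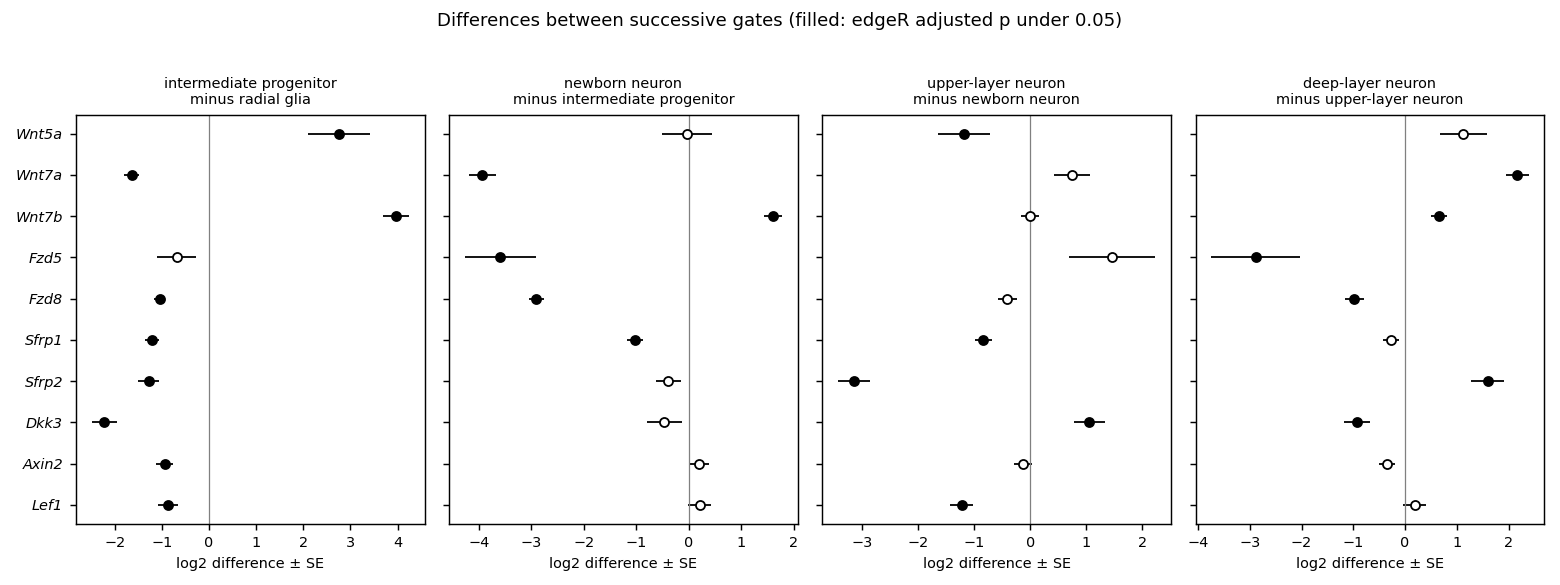
Log2 difference between pairs of gates (horizontal axes) for the 10 genes (vertical axis), fitted over the 4 libraries with the library as a block. The rightmost panel sets deep-layer against upper-layer neurons, which are neuron classes rather than successive stages. Points are the estimate, lines its SE, and filled points passed an edgeR adjusted p of 0.05. The left panel has 9 filled points, with Wnt7b at 3.97 and Wnt5a at 2.75 to the right of 0 and 7 genes to the left.

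The study's main comparison, i4F-Nes against CTR, gave no change in these 10 genes that passed edgeR's test without a replicate block, in all kept cells or in any of the 6 gates tested. In all kept cells 0 of 10 passed, where 2.28% of 18547 genes did (420 or 2.26% higher, 3 or 0.0162% lower). The count was 0 of 9 in radial glia (0.015% of all genes called), 0 of 9 in intermediate progenitors (0.00784%), 0 of 8 in newborn neurons (0.00744%), and 0 of 9, 0 of 9 and 0 of 5 in upper-layer neurons, deep-layer neurons and interneurons (0.0% each). Members left out of a gate's test had too few UMIs there: Wnt5a in radial glia, Fzd5 in the other 5 gates, Wnt7a in newborn neurons, and Fzd8, Dkk3, Axin2 and Lef1 in interneurons. At an unadjusted p under 0.05 the counts by edgeR were 2 of 10 in all kept cells (12.5% of all genes), 3 of 9 in intermediate progenitors (4.10%), 1 of 5 in interneurons (4.14%) and 0 in the other 4 gates (1.24% to 5.25%). DESeq2 called 1, Sfrp1 in all kept cells, where it called 5.91% of all genes. It called 0 in the 6 gates, where it called 0.0% to 0.334% of all genes. The median log2 difference of the members was 0.015 in all kept cells and 0.023 in radial glia, against -0.024 and -0.0018 over all genes. The difference between the responses of upper-layer neurons and radial glia was tested as an interaction, and 0 of 10 members and 0.0% of 14988 genes passed (edgeR; 1 member, Fzd8, at an unadjusted p of 0.0211, adjusted p = 0.758; DESeq2 called 0).

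Sfrp1 came closest. Over all kept cells it stood at 110 and 86.4 CPM in CTR and 183 and 160 CPM in i4F-Nes, with both i4F-Nes libraries above both CTR libraries, as for 22.1% of all genes. The log2 difference was 0.72 ± 0.152 (n = 2 libraries a group; edgeR unadjusted p = 0.00458, adjusted p = 0.104), and DESeq2 gave an adjusted p of 0.00887. Cells of the Cytl1 S100a11 profile supplied 8412 of the 23516 Sfrp1 UMIs of i4F-Nes replicate 1 and 4756 of the 12543 of replicate 2. Without both profile gates the difference was 0.38 with an adjusted p of 1.00. In a sum over all cells, more cells of a type and more RNA per cell cannot be told apart. Within gates, Sfrp1 values of i4F-Nes exceeded those of CTR without overlap in radial glia (0.27 ± 0.175, adjusted p = 0.995), in intermediate progenitors (0.54 ± 0.175, unadjusted p = 0.0135, adjusted p = 0.982) and in upper-layer neurons (0.23 ± 0.125, adjusted p = 1.00). Such separation is common here: both i4F-Nes libraries lay above both CTR libraries for 18.2% of all genes in radial glia, 15.9% in intermediate progenitors and 13.6% in upper-layer neurons. Marker UMIs of the Cytl1 profile list, which includes the induced factor Pou5f1, moved the same way in intermediate progenitors and radial glia. They went from 32.8 and 37.7 CPM in CTR to 68.9 and 110 CPM in i4F-Nes intermediate progenitors. In radial glia they went from 55.2 and 77.6 to 99.7 and 196 CPM. Their part in the Sfrp1 values was not tested.

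Intermediate progenitors gave the most members with separate groups. Dkk3 was read at 0.739 and 1.71 CPM in CTR and 2.69 and 5.00 CPM in i4F-Nes, from 7, 8, 26 and 22 UMIs, a log2 difference of 1.71 ± 0.585 (unadjusted p = 0.0178, adjusted p = 1.00). Wnt5a, with the CPM values given above, differed by 1.48 ± 0.549 (unadjusted p = 0.0256, adjusted p = 1.00). Lef1 was read at 12.9 and 10.3 CPM in CTR and 8.89 and 2.27 CPM in i4F-Nes, a difference of -0.95 ± 0.468 (adjusted p = 1.00). With Sfrp1 this makes 3 members above CTR (15.9% of all genes) and 1 below (13.3%) without overlap, and no call. Ccnd1, the cell-cycle gene cyclin D1 and a pathway target, also separated in this gate, at 38.8 and 42.2 CPM in CTR and 81.7 and 136 CPM in i4F-Nes, without passing the test.

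Lef1 was low above all in i4F-Nes replicate 2. Its log2 differences were negative in all kept cells and in the 5 excitatory gates, from -0.32 to -1.18. Adjusted p-values were 0.890 to 1.00 by edgeR without a replicate block. With that block Lef1 passed in upper-layer neurons (-1.10, edgeR adjusted p = 0.000189) and deep-layer neurons (-1.26, adjusted p = 1.10e-05). There 9.10% and 6.42% of all genes passed, and the labels do not say that replicate numbers pair the libraries. Without i4F-Nes replicate 1, no spread within i4F-Nes was measured. With replicate 2 as the only i4F-Nes library, the difference was -1.71 in radial glia and -2.33 in intermediate progenitors. Without i4F-Nes replicate 2 it was 0.043 in radial glia, but still -0.43, -0.53 and -0.58 in intermediate progenitors, upper-layer and deep-layer neurons, 3 gates in which it was negative under each of the 9 alternatives. Over all kept cells Wnt7b was at 95.4 and 65.5 CPM in CTR and 74.7 and 48.7 CPM in i4F-Nes, a difference of -0.47 ± 0.261 (adjusted p = 0.605), while deep-layer neurons differed by only 0.01 ± 0.141. The log2 difference of Axin2 lay between -0.24 and 0.14 in the 6 comparisons that tested it. Fzd5 in all kept cells stood at 0.279 and 0.380 CPM in CTR and 0.608 and 0.726 CPM in i4F-Nes, and its difference of 0.93 ± 0.363 did not pass (adjusted p = 0.395). In newborn neurons Fzd8 was below CTR in both i4F-Nes libraries, by -0.71 ± 0.339 (adjusted p = 1.00).

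**Figure D4:**
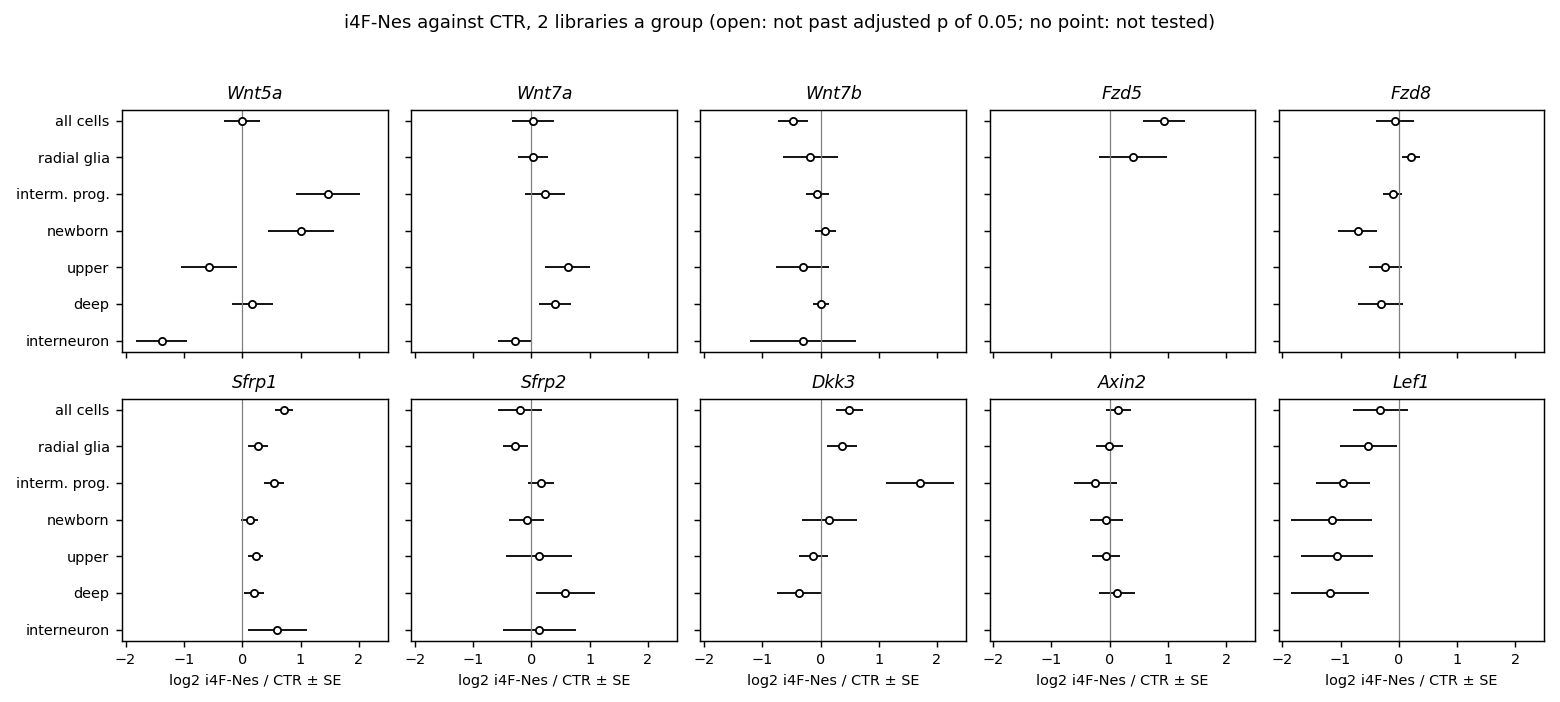
Log2 difference of i4F-Nes over CTR (horizontal axes) for each of the 10 genes, in all kept cells and in 6 gates (vertical axis), with 2 libraries a group. Points are edgeR estimates without a replicate block, with their SE. All are open because none passed an adjusted p of 0.05, and a missing point was not tested. Sfrp1 lies right of 0 in all 7 comparisons, at 0.72 in all kept cells, and Lef1 left of 0 in each of its 6.

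The 2 populations seen only in i4F-Nes were each compared with radial glia. Cells of the Cytl1 S100a11 profile held Sfrp1 at 491 and 432 CPM in replicates 1 and 2, close to the 548 and 525 CPM of radial glia in the same libraries, and the fitted difference was -0.13 ± 0.188 (adjusted p = 0.627). Dkk3 stood at 11.6 and 8.82 CPM against 11.4 and 13.7 CPM in radial glia, and Axin2 at 11.2 and 12.4 CPM against 9.46 and 10.0 CPM (log2 difference 0.42 ± 0.182, adjusted p = 0.0666). The other progenitor genes were low. Fzd8 was at 5.90 and 7.09 CPM against 115 and 96.0 CPM, Wnt7a at 10.7 and 6.36 CPM against 42.0 and 23.6 CPM, and Sfrp2 at 10.2 and 8.09 CPM against 59.9 and 39.4 CPM. Those log2 differences were -3.76 ± 0.196, -1.86 ± 0.202 and -2.48 ± 0.312. Lef1 was higher than in radial glia of the same library in both replicates, 24.7 and 10.7 CPM against 19.3 and 5.46 CPM (log2 difference 0.92 ± 0.234, adjusted p = 0.00173; 0.121 with DESeq2), and so was Wnt5a, at 2.34 and 2.91 CPM against 0.310 and 0.295 CPM (log2 difference 3.02 ± 0.694, adjusted p = 0.000756). In all 5 of 10 differed, 2 higher and 3 lower, where 42.3% of all genes did (25.5% higher, 16.8% lower).

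In the Krt8 Crabp2 Ebf profile the progenitor genes were low as well. Sfrp1 stood at 46.9 and 31.1 CPM, Fzd8 at 4.14 and 2.51 CPM, Sfrp2 at 1.03 and 1.35 CPM and Wnt7a at 1.77 and 0.579 CPM in i4F-Nes replicates 1 and 2. Dkk3, with 4 and 2 UMIs, was at 0.591 and 0.386 CPM. Wnt7b was at 7.09 and 5.59 CPM, above radial glia of the same libraries (1.63 and 2.80 CPM) but far under their newborn neurons (105 and 83.2 CPM). All but Fzd5 differed from radial glia, 2 higher (Wnt5a and Wnt7b) and 7 lower, where 55.8% of all genes differed (31.4% higher, 24.4% lower), from -5.47 ± 0.487 for Sfrp2 to 2.68 ± 0.816 for Wnt5a. The calls of Axin2, Wnt5a and Wnt7b were each lost without one or other i4F-Nes replicate. These cells had neuronal marker sums of 7140 and 7803 CPM, against 386 and 371 CPM in radial glia, and radial glia marker sums of 1352 and 724 CPM against 11425 and 10264 CPM. The lists that define both profiles were chosen on earlier results of the same libraries, so these differences from radial glia describe the gates and are no independent evidence.

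Of 90 other Wnt pathway genes listed, 70 were tested over all kept cells and 4 were higher in i4F-Nes, with none lower, where 2.26% of all genes were higher and 0.0162% lower. Lgr6, a receptor for R-spondins, rose by 5.83 ± 0.438 (edgeR adjusted p = 0.0105), from 0.0930 and 0.0735 CPM in CTR to 6.47 and 3.82 CPM. Ror1, a Wnt5a receptor, rose by 3.13 ± 0.281 (adjusted p = 0.0146), from 0.941 and 0.931 to 10.3 and 7.07 CPM. Ccnd1 rose by 1.97 ± 0.202 (adjusted p = 0.0189), from 15.49 and 11.04 to 59.5 and 51.0 CPM. Fzd10, a Frizzled receptor, rose by 3.20 ± 0.385 (adjusted p = 0.0271), from 0.0827 and 0.0735 to 0.748 and 0.803 CPM. By role this was 2 of 16 receptors and co-receptors, 1 of 6 R-spondins and their receptors, and 1 of 5 other targets, and 0 of 6 ligands, 0 of 7 inhibitors, 0 of 9 nuclear, 0 of 11 cytoplasmic, 0 of 8 planar polarity and 0 of 2 secretion genes. The median of the 70 was -0.0044 against -0.024 over all genes, and 15 had an unadjusted p under 0.05, where 12.5% of all genes did. These 4 genes were read in the profile cells, which CTR lacked: Ror1 was at 69.4 and 38.6 CPM and Lgr6 at 42.0 and 22.1 CPM in the Cytl1 profile, and Ccnd1 at 305 and 199 CPM, against 67.1 and 79.6 CPM of Ccnd1 in radial glia of the same libraries. No gene of the list passed in any of the 6 gates. At an unadjusted p under 0.05 by edgeR there were 4 of 55 in radial glia (5.25% of all genes) and 4 of 50 in intermediate progenitors (4.10%). Newborn neurons had 4 of 52 (2.42%), upper-layer neurons 5 of 54 (1.24%), deep-layer neurons 2 of 57 (1.63%) and interneurons 2 of 34 (4.14%).

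**Figure D5:**
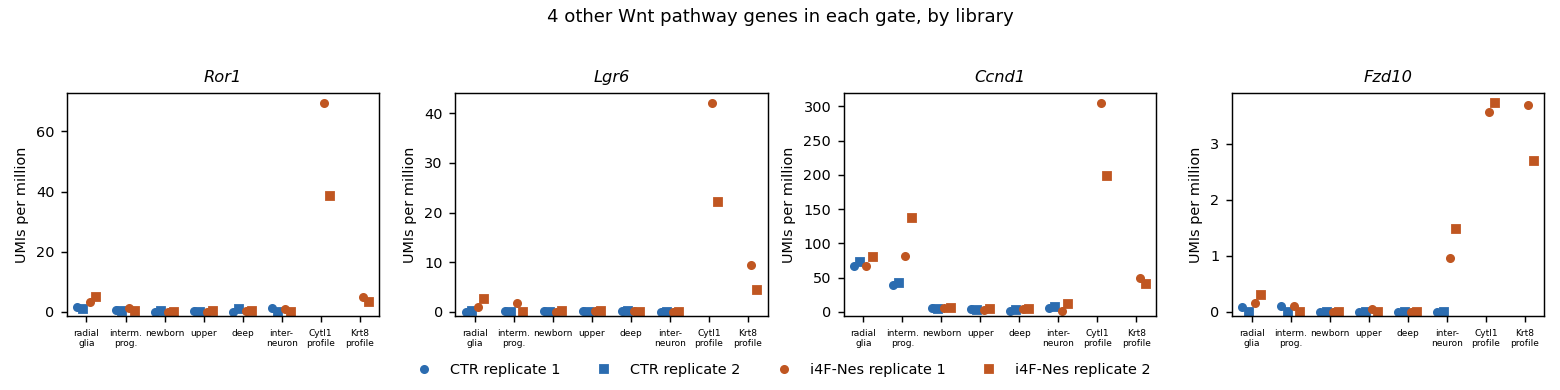
Level of Ror1, Lgr6, Ccnd1 and Fzd10, the 4 other pathway genes higher in i4F-Nes over all kept cells, in CPM (vertical axes, linear) in 8 gates, by library. Blue is CTR and orange i4F-Nes, circles replicate 1 and squares replicate 2. In the Cytl1 profile Ror1 reaches 69.4 and Ccnd1 305, and the highest Ror1 value outside that gate is 5.03, in the Krt8 profile.

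Against radial glia, the Cytl1 profile differed by edgeR in 38 of 76 listed genes tested, 24 higher and 14 lower, where 42.3% of all genes differed (25.5% higher, 16.8% lower). The 5 with the smallest p were Vangl2 (-1.67 ± 0.103), Celsr2 (1.17 ± 0.130), Pygo1 (-1.50 ± 0.174), Ror1 (4.09 ± 0.409) and Prickle2 (3.06 ± 0.333), of which all but Pygo1, a nuclear partner of β-catenin, and Ror1 belong to planar polarity. Vangl2 fell to 29.3 and 32.7 CPM from 121 and 93.4 CPM, while its paralogue Vangl1 was at 12.2 and 7.73 CPM against 1.47 and 2.21 CPM. The Krt8 profile differed in 50 of 76, 28 higher and 22 lower (55.8% of all genes, 31.4% higher and 24.4% lower), led by Apc2 (3.10 ± 0.123), Celsr3 (4.70 ± 0.245), Tcf7l2 (-3.36 ± 0.182), Celsr2 (2.03 ± 0.131) and Prickle2 (5.86 ± 0.306).

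Along the excitatory lineage, over the 4 libraries, 43 of 76 listed genes differed between intermediate progenitors and radial glia (22 higher, 21 lower), where 45.5% of all genes did (22.2% higher, 23.3% lower). Apc2, the neural form of the scaffold APC, rose from 7.03, 9.56, 9.23 and 10.8 CPM in radial glia of CTR 1, CTR 2, i4F-Nes 1 and i4F-Nes 2 to 35.6, 40.0, 32.6 and 29.1 CPM. Tcf7l2, a TCF factor, changed by -2.03 ± 0.121, Celsr3 by 3.43 ± 0.237, Dvl3, a Dishevelled protein, by 0.97 ± 0.094, and Tnfrsf19, a target, by -2.51 ± 0.227. Cytoplasmic genes that passed were all higher, 7 of 11, and 7 of 9 nuclear genes were lower. At the step to newborn neurons 37 changed (21 higher, 16 lower; 45.3% of all genes), led by Apc2 (1.59 ± 0.091), Celsr1 (-1.95 ± 0.125), the secreted R-spondin Rspo3 (4.62 ± 0.284), Ccnd1 (-3.56 ± 0.282) and Celsr3 (1.44 ± 0.146). Rspo3, which strengthens Wnt responses in receiving cells, rose again, from 40.4, 58.5, 41.0 and 50.7 CPM in newborn neurons to 159, 197, 182 and 167 CPM in upper-layer and 324, 255, 283 and 162 CPM in deep-layer neurons. From newborn to upper-layer neurons 29 changed (14 higher, 15 lower; 33.6%), with Tcf7l2 at -2.86 ± 0.133, Celsr1 at -2.50 ± 0.142, Rspo3 at 1.99 ± 0.173, the inhibitor Dkk2 at -4.60 ± 0.487 and Vangl2 at -0.60 ± 0.074. Deep-layer and upper-layer neurons differed in 36 (12 higher, 24 lower; 32.2%), first in Prickle1, a planar polarity gene, which stood at 349 to 471 CPM in deep-layer and 8.15 to 14.9 CPM in upper-layer neurons (5.22 ± 0.194). Next came Fzd1 at -2.50 ± 0.175, Tle3 at -1.43 ± 0.129, Prickle2 at 2.63 ± 0.204 and Daam1 at -0.89 ± 0.099.

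The genes whose levels ran most like each member were found over 24 points, the 6 excitatory and interneuron gates in each of 4 libraries, by Pearson's r of log2(CPM + 1). Points of 1 library share its depth and its cells' source, so r is a description. Fzd8 ran with Lrp4 (r = 0.986), Mrfap1 (0.984) and Cbs (0.983), and Sfrp1 with Dusp16 (0.979), Wee1 (0.978) and Cdon (0.978). Wnt7b ran with Tiam2 (0.967), Tenm4 (0.967) and Ppp2r2b (0.953), and Wnt7a with Habp4 (0.965), Dcbld2 (0.951) and Tmtc4 (0.949). Sfrp2 was most like Ccna2 (0.956), Ccnb1 (0.954) and Cenpa (0.953), 3 genes of the dividing cell, and Dkk3 most like Rangap1 (0.958), Pgp (0.910) and Lmnb1 (0.904). The closest genes to the other 4 were, for Fzd5, Srsf9 (0.937), for Wnt5a Sorcs3 (0.913), for Axin2 Ptx3 (0.904) and for Lef1 Tesk2 (0.897). These 4 and Dkk3 themselves averaged under the 10 CPM asked of their partners. Fzd5 had only 3, 1 and 1 UMIs in newborn neurons, deep-layer neurons and interneurons, so its r rests largely on values near 0.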

How the data were processed

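Single-cell RNA-seq was done on 4 libraries (Chromium 3′ chemistry). Per the file headers the deposited matrices hold raw UMI counts per gene and barcode from cellranger 7.0.1, and the submitters' processing notes name the build mm10. Barcodes with at least 1000 UMIs, at least 500 genes and at most 10% mitochondrial UMIs were kept (28672 of 35255), and the 2031 with the highest Scrublet scores were removed as doublets, at 0.8% per 1000 barcodes. Cells were placed in mutually exclusive gates by raw UMIs of marker lists (2 to 20 UMIs over at least 3 markers), so deep cells pass more easily. The thresholds were set after the data had been seen, and the intermediate progenitor gate was widened once after member levels had been displayed. UMIs were summed per library and gate. The main test was edgeR 4.0.16 (TMM, quasi-likelihood, robust, filterByExpr) with Benjamini-Hochberg adjustment over all genes tested and a threshold of 0.05, without a replicate block for i4F-Nes against CTR and with library as a block between gates. The script was tested on simulated data. DESeq2 1.42.0, no filter on low counts, each library left out, a replicate block, no doublet removal, stricter gates, CTR libraries alone and removal of both profile gates were alternatives. All 10 genes are described. Other pathway genes are named when past the threshold, up to 5 a comparison by smallest p. Among those named outside this rule are Ccnd1 in intermediate progenitors, Vangl1 in the Cytl1 profile, and Apcdd1, Fzd6, Fzd4 and Adgra2 in endothelial cells. Genes of like pattern are the 3 with the highest r, out of those averaging 10 CPM or more. The 10 genes, the pathway list and the marker lists were chosen with earlier results of these data known. Gene coordinates are from GENCODE M21 on GRCm38.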

Additional observations from a re-analysis of the deposited data

Results flagged for a closer look

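For 3 genes both i4F-Nes libraries lay above both CTR libraries in one gate and below them in another. Such separation is common: they lay above for 15.9% of all genes in intermediate progenitors, 18.2% in radial glia and 13.8% in deep-layer neurons, and below for 16.3% in interneurons, 13.4% in newborn neurons, 12.2% in upper-layer and 13.1% in deep-layer neurons. Wnt5a differed by 1.48 on the log2 scale in intermediate progenitors and by -1.38 in interneurons, and by 0.17 in deep-layer neurons. Fzd8 differed by 0.21 in radial glia and by -0.71 in newborn neurons. Dkk3 differed by 1.71 in intermediate progenitors, by -0.12 in upper-layer neurons and by -0.36 in deep-layer neurons. These differences between gates were not tested, and none of the single values passed an edgeR adjusted p of 0.05. Summed markers of the Cajal-Retzius list in the interneuron gate were 443 and 424 CPM in CTR and 562 and 945 CPM in i4F-Nes, and their part in the Wnt5a value was not tested.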

How the results depend on the processing

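Of 123 counts of members past the threshold under an alternative, 113 lay within 1.5 times the main count and 10 did not. For i4F-Nes against CTR, where the main count was 0 in each comparison, all kept cells gave 1 with DESeq2 and 1 without the filter on low counts (Sfrp1, adjusted p = 0.00887 and 0.0398). Of all genes, 5.91% and 3.07% passed in those fits. Others of the 10 came from fits without a single library. Each such fit left 1 library in a group, so no spread within that group was measured, and only log2 differences are given. Without CTR replicate 1 Sfrp1 differed by 0.89 in all kept cells. Without i4F-Nes replicate 1 Lef1 differed by -1.71 in radial glia and by -2.33 in intermediate progenitors. Sfrp1 then differed by 0.66 in intermediate progenitors and by 1.32 in interneurons. Without single libraries Lef1 in radial glia ranged from -1.71 to 0.043, turning sign without i4F-Nes replicate 2, and Wnt7b in upper-layer neurons from -0.85 to 0.37, turning sign without CTR replicate 1 or without i4F-Nes replicate 2 (0.10). The sign turned too for Sfrp1 in interneurons without i4F-Nes replicate 2 (-0.43) or with stricter gates (-0.36). The cause was not tested.

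The labels do not say that replicate numbers pair the libraries, and same-numbered libraries deviated together with r of 0.19 to 0.62 over 7 sums, from 2 pairs only. With the replicate block 2 members passed in all kept cells (Sfrp1, adjusted p = 0.0141, and Wnt7b, -0.48, adjusted p = 0.0179; 7.63% of all genes), 3 in upper-layer neurons (Lef1 -1.10, Sfrp1 0.23 and Wnt7b -0.28, adjusted p = 0.000189, 0.0210 and 0.000166; 9.10% of all genes) and 1 in deep-layer neurons (Lef1 -1.26, adjusted p = 1.10e-05; 6.42% of all genes).

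Between deep-layer and upper-layer neurons 6 members passed and 2 did in CTR libraries only (27.2% of all genes), where Fzd5, Sfrp2, Dkk3 and Wnt7b missed it (adjusted p = 0.0885, 0.113, 0.0516 and 0.192). Fzd5 also missed it without CTR replicate 2 (0.0580) and Dkk3 without i4F-Nes replicate 1 (0.0597). Lef1 in the Cytl1 profile missed it without doublet removal (0.66, adjusted p = 0.0734).

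Counts over all genes moved by more than 1.5 times. All kept cells gave 423 by edgeR, 1165 by DESeq2, 808 without the filter, 1416 with the replicate block, 584 to 782 without single libraries and 0 without the profile gates. Radial glia gave 2, against 54, 210, 256 and 66 to 263, and 11 with stricter gates. Intermediate progenitors gave 1, against 22, 153, 69 and 18 to 397, with 0 without doublet removal and 3 with stricter gates. Newborn neurons gave 1, against 7, 60, 76 and 3 to 52, and 0 without doublet removal or with stricter gates. Upper-layer neurons gave 0 by both tools, with 1260 under the block and 0 to 9 without single libraries. Deep-layer neurons gave 0, against 9, 148, 913 and 0 to 15, and interneurons 0, against 5, 74, 57 and 1 to 217. The response difference gave 0, against 6 by DESeq2, 128 without the filter, 0 to 322 without single libraries and 4 with stricter gates. With 2 libraries a group, small differences were not detectable, and larger ones could be missed too. Dkk3 at 1.71 in intermediate progenitors and Lef1 at -1.18 in deep-layer neurons did not pass by edgeR without a replicate block. Values from under 10 UMIs a library rest on counting error.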
